A study of Saccharomyces cerevisiae with 18 samples.

Results

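The aromatic amino acid synthesis genes of budding yeast (Saccharomyces cerevisiae) described here are ARO1, ARO2, ARO3, ARO4, ARO7, ARO8, TRP2, TRP3, TRP4 and TRP5. They were taken by systematic name, 10 of the 6606 open reading frames (ORFs) in the deposited table, and 9 of them passed the filter on low counts that the tests required. None of the 9 differed between a heterozygous strain and wild-type past the adjusted threshold. ARO4, TRP3 and TRP4 had the largest fold changes averaged over the strains, 0.93, 1.27 and 1.15 log2 units above wild-type. TRP4 passed that filter through high strain libraries alone and TRP3 mainly so, and their fold changes are therefore no support for the group. The levels of ARO2 and ARO3 followed a score that separated libraries both within and between genotypes. Tested ORFs had a median absolute correlation of 0.50 with that score.

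The shikimate pathway condenses phosphoenolpyruvate with erythrose 4-phosphate and carries the product to chorismate, the branch point from which tryptophan, phenylalanine and tyrosine are made. Its first reaction is catalysed by paired isozymes, and these are the main points of feedback control, Aro3 by phenylalanine and Aro4 by tyrosine. Many genes of the pathway are targets of the transcription factor Gcn4, the activator of general amino acid control, whose core binding site reads TGACTC.

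RNA was measured by poly-A selected sequencing in 18 libraries, 6 from wild-type and 3 from each of 4 heterozygous diploid strains that had lost 1 copy of a chromosome I gene. The replaced genes were YAL067C (SEO1, a putative permease), YAL031C (GIP4, which binds the phosphatase Glc7), YAL022C (FUN26, a nucleoside transporter) and YAL008W (FUN14, a mitochondrial membrane protein), and the study asked how a gene's position bears on expression. Every culture grew in log phase in the rich glucose medium YPD at 30 °C, from an optical density of 0.2 to 1.0 and without G418. BY4741, a haploid of mating type a, is the labelled background of every library, whereas the series record calls the wild-type diploid and the deposited wild-type columns are named after the diploid BY4743. No label says whether replicates were grown as separate cultures, and the p-values then cover only the variation among these libraries, part or all of which may be technical.

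Library totals ran from 52293.5 to 132618 estimated counts. Between wild-type replicates 1 and 2 the difference was no larger than the modelled sampling noise (chi-square per ORF 0.959 over 2422 ORFs). The other 14 wild-type pairs had 1.98 to 9.16. Replicates 1 and 2 were counted as 1 sample, which left wild-type with n = 5. The summed level of the a-cell genes MFA1, MFA2 and STE2 was 733 to 983 CPM (counts per 1e+06 of the scaled library total) in wild-type and 0 to 47.4 CPM in the strains, while that of the alpha-cell genes MF(ALPHA)1 and STE3 was 0 to 49.2 CPM in wild-type and 0 to 48.0 CPM in the strains. A difference between all 4 strains and wild-type can therefore not be told apart from whatever else separates the cells labelled wild-type, mating type included. The replaced gene stood lower in its own strain than in wild-type for FUN14 (164 ± 28.7 against 309 ± 51.2 CPM, SD), FUN26 (136 ± 65.0 against 269 ± 117 CPM) and GIP4 (9.79 ± 9.02 against 57.0 ± 22.7 CPM). FUN26 overlapped wild-type, with 210 CPM in replicate 2 of its strain against 114 CPM in wild-type replicate 3. GIP4, at 0 to 2 counts a library in its strain and 3 to 8 in wild-type, did not pass the filter. SEO1 had 3.5 counts in all of wild-type and 0 in every strain, too few to check a label.

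Promoter windows of 4 members are printed to show where the Gcn4 core site lies in members that differ in their strain values. Each window is 300 bases of the R64 reference, 250 before the start codon and 50 after it, read 5′ to 3′ on the strand of the gene, with TGACTC on either strand in capitals. TRP3 and TRP4, with the largest fold changes, hold the motif, and ARO4, the other member with a large fold change, does not. TRP2, whose mean was nearest to wild-type, holds it at 2 places. ARO1, not printed, holds it with an average fold change of 0.30 log2 units. The printed windows were picked by fold changes in these data, and TRP3 and TRP4 passed the filter mainly or only through strain libraries. A link between motif and level was not tested. The windows are TRP3 at chr11:38104-38403 on the minus strand, TRP4 at chr4:1184497-1184796 on the plus strand, TRP2 at chr5:337699-337998 on the plus strand and ARO4 at chr2:717945-718244 on the minus strand.
TRP3: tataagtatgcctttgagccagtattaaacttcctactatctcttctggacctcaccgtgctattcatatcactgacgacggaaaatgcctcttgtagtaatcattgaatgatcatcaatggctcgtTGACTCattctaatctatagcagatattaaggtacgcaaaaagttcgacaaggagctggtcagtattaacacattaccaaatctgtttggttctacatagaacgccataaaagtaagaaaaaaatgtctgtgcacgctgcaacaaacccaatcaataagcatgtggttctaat
TRP4: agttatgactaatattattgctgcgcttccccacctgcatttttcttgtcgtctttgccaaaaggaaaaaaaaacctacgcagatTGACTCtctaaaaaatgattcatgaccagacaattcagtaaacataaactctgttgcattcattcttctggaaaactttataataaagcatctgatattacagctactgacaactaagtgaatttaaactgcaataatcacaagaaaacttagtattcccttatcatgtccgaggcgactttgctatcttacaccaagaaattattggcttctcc
TRP2: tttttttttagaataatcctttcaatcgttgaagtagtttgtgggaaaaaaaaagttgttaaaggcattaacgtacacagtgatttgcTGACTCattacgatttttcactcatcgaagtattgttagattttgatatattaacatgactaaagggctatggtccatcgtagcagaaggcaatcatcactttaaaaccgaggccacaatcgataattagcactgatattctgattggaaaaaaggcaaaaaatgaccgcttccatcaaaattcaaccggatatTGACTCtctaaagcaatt
ARO4: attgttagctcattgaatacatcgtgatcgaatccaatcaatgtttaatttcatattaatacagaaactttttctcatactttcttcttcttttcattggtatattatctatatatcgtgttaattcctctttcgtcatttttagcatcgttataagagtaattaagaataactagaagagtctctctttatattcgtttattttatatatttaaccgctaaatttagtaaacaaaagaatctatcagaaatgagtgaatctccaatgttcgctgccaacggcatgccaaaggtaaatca

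TGACTC was found in 4 of the 10 members' windows, starting 223 bases before the start codon in ARO1, 162 in TRP2, 123 in TRP3 and 165 in TRP4. The other copy in TRP2 lay inside the coding start. By count this was 40% of the members, against 60.7% of 28 genes for the synthesis of other amino acids and 8.46% of the 2601 tested ORFs with a window. ARO2, ARO3, ARO4, ARO7, ARO8 and TRP5 had none in these 300 bases, which says only that these letters are not there.

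In wild-type the members spanned a wide range of levels. All were counted over the last 200 bases of the ORF, so CPM compares them per length, and none of their windows overlaps another ORF or shares a run of 25 bases with another place in the reference, although no value in the table exceeds 201 and strong genes are compressed near that ceiling. ARO2 was highest at 793 ± 385 CPM (SD, n = 5), above 88.8% of the tested ORFs. ARO3 followed at 537 ± 258, TRP5 at 288 ± 42.3, TRP2 at 268 ± 132, ARO8 at 202 ± 50.01 and ARO1 at 188 ± 60.1 CPM. ARO4 stood at 128 ± 49.5, TRP3 at 63.6 ± 39.2, ARO7 at 54.4 ± 27.7 and TRP4, the lowest, at 34.2 ± 24.5 CPM. Of the neighbours in this order, ARO4 and TRP3 were the sole pair whose means differed by more than the larger of their SDs.

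**Figure D1:**
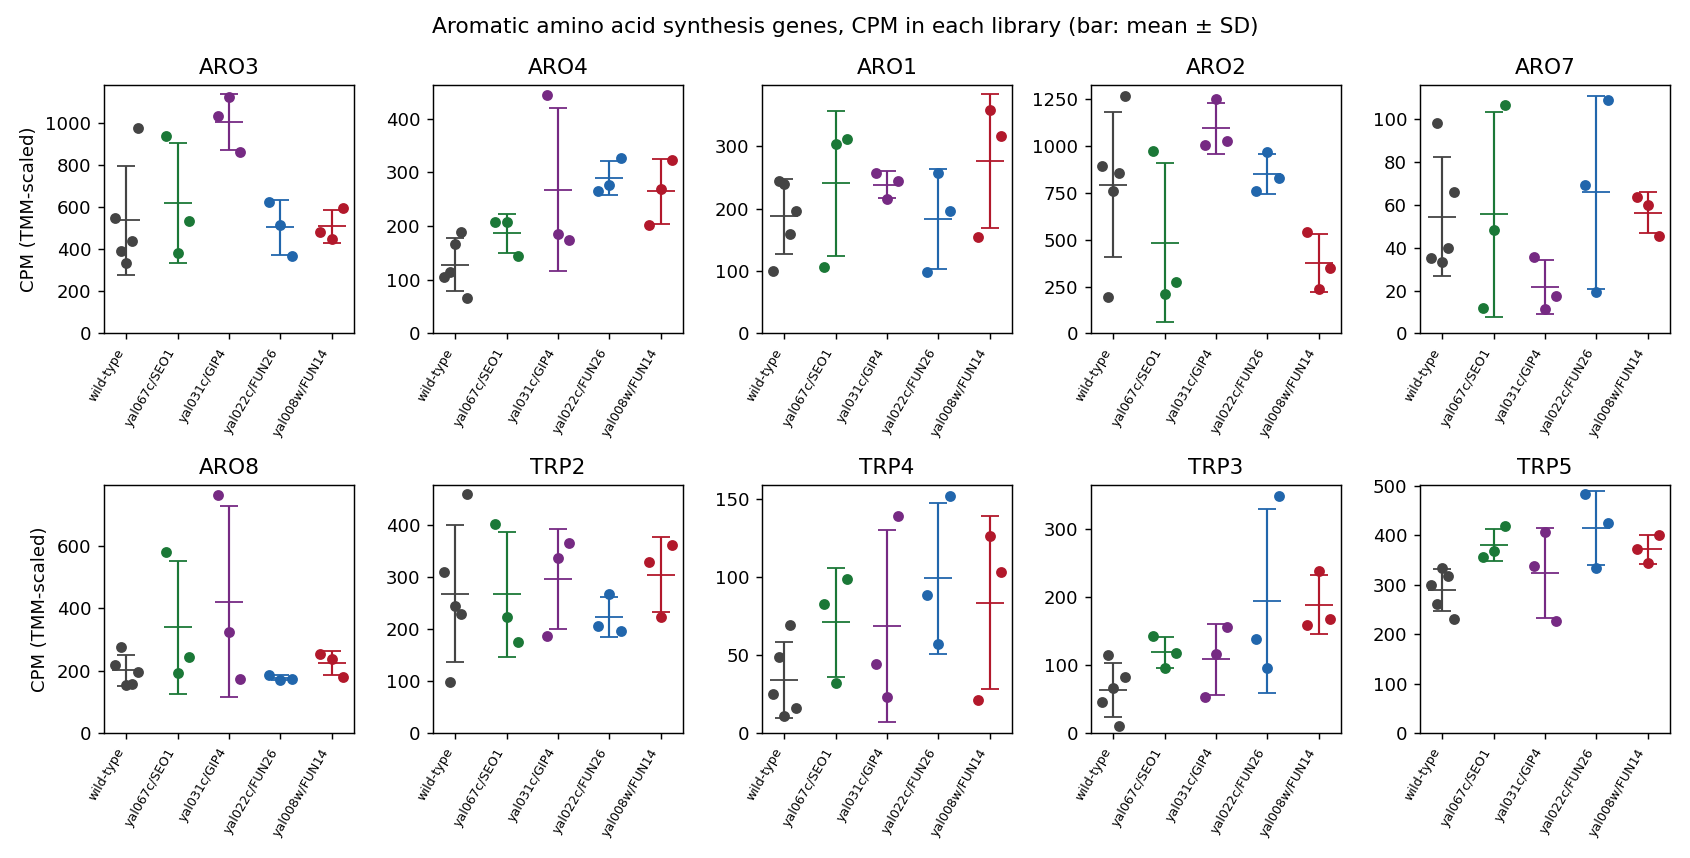
Normalised level of each member (CPM, linear axes starting at 0) in the 17 libraries, by genotype; points are libraries, and the bar and whiskers give the mean and SD of the group. ARO4, TRP3, TRP4 and TRP5 lie higher in most strain libraries than in wild-type, while ARO2 and ARO3 vary within groups.

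The isozymes of the first reaction differed in pattern. ARO4 (YBR249C, chromosome 2, 716877 to 717989 on the C strand in the deposited coordinates, of a build the sources used here do not name), which encodes the tyrosine-inhibited 3-deoxy-D-arabino-heptulosonate-7-phosphate synthase, read 105, 114, 167, 189 and 65.7 CPM in the 5 wild-type samples. It read 207.5, 208 and 144 CPM in the SEO1 heterozygote, 444, 186 and 174 CPM in the GIP4 heterozygote, 266, 277 and 326 CPM in the FUN26 heterozygote and 202, 268 and 323.5 CPM in the FUN14 heterozygote. All 12 strain libraries lay above the wild-type mean and 9 lay above its highest sample. Every FUN26 and every FUN14 library lay above wild-type, as for 2.00% and 4.90% of tested ORFs.

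Averaged over the 4 strains, ARO4 differed from wild-type by 0.93 ± 0.29 log2 units (SE), with an unadjusted p of 0.00462 and an adjusted p of 0.527 by edgeR's quasi-likelihood test. The strain values were 0.51 ± 0.39 for SEO1, 1.07 ± 0.37 for GIP4, 1.14 ± 0.37 for FUN26 and 1.01 ± 0.38 for FUN14 heterozygotes, with edgeR unadjusted p of 0.201, 0.0094, 0.00682 and 0.0145. In the GIP4 heterozygote the 1.07 rests on replicate 1, without which it was 0.44.

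ARO3, the phenylalanine-inhibited isozyme, read 546, 392, 333, 438 and 977 CPM in wild-type and 1034, 1121 and 861 CPM in the GIP4 heterozygote. It ranged from 370 to 937 CPM in the other 3 strains. Only 2 of the 12 strain libraries exceeded the highest wild-type sample, both of the GIP4 heterozygote. The GIP4 difference was 0.92 ± 0.32 log2 units, with an unadjusted p of 0.0092 and an adjusted p of 0.729 by edgeR. Averaged over the strains ARO3 was at 0.26 ± 0.24 log2 units (edgeR adjusted p = 0.824). Leaving out 1 library took this from 0.13, without wild-type replicate 4, to 0.57, without wild-type replicate 6 (edgeR unadjusted p = 0.0224).

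ARO1 encodes the arom protein, a single chain that carries the central steps of the shikimate pathway. It read 100, 245, 239, 159 and 197 CPM in wild-type and 98.6 to 358 CPM in the 12 strain libraries, 6 of them above the wild-type range, 1 below it and 5 inside it. Its mean difference over the strains was 0.30 ± 0.31 log2 units (edgeR adjusted p = 0.844).

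ARO2 (YGL148W, chromosome 7, 226404 to 227534 on the W strand), chorismate synthase, closes the pathway to chorismate. Wild-type read 890, 196, 761, 856 and 1264 CPM, with replicate 3, at 196, far below the other 4. The SEO1 heterozygote read 972, 208 and 273.5 CPM, the GIP4 heterozygote 1003, 1249 and 1027 CPM, the FUN26 heterozygote 759, 964 and 826 CPM and the FUN14 heterozygote 541.5, 238.5 and 349 CPM. Within wild-type and within the SEO1 heterozygote the libraries fell far apart, while the GIP4 and FUN26 libraries lay close together.

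The ARO2 difference from wild-type was −1.06 ± 0.47 log2 units in the FUN14 heterozygote, with an unadjusted p of 0.0384 and an adjusted p of 0.281 by edgeR. It was −0.71 ± 0.46 in the SEO1 heterozygote (edgeR adjusted p = 0.994) and 0.46 ± 0.43 in the GIP4 heterozygote (0.942). Averaged over the strains it was −0.30 ± 0.32 (edgeR adjusted p = 0.847), and this sign turned under other settings. An F test among the 4 strains gave ARO2 an unadjusted p of 0.0268 and ARO3 one of 0.0366 in edgeR, with adjusted p of 0.463 and 0.476.

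ARO7, chorismate mutase, leads from chorismate to phenylalanine and tyrosine. With 1 to 14 counts in a library it did not pass the filter and was not tested. It read 33.3 to 98.0 CPM in wild-type and 11.6 to 109 CPM in the strains, and over all libraries the ratio of strains to wild-type was 0.996 (95% exact interval for counting error only, 0.59 to 1.74).

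ARO8, an aromatic aminotransferase that completes phenylalanine and tyrosine, read 218, 278, 155.5, 159 and 197 CPM in wild-type. The GIP4 heterozygote read 763, 325 and 174 CPM and the SEO1 heterozygote 581, 192 and 243 CPM, with the first replicate far above the others in both. The differences were 1.11 ± 0.41 log2 units in the GIP4 heterozygote (edgeR unadjusted p = 0.0134, adjusted p = 0.827) and 0.76 ± 0.42 in the SEO1 heterozygote (unadjusted p = 0.0834). Without replicate 1 they were 0.32 and 0.16. The FUN26 and FUN14 heterozygotes, at 178 ± 8.38 and 225 ± 38.7 CPM, lay inside the wild-type range of 155.5 to 278 CPM. Averaged over the strains ARO8 was at 0.47 ± 0.32 log2 units (edgeR adjusted p = 0.741), with 0.28 to 0.62 on leaving out a library, the lowest without GIP4 replicate 1.

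The tryptophan branch begins with anthranilate synthase, formed by Trp2 with Trp3, whose protein also carries indole-3-glycerol phosphate synthase. TRP3 (YKL211C, chromosome 11, 36700 to 38154 on the C strand) read 45.1, 114, 66.7, 9.95 and 82.1 CPM in wild-type. It read 142, 95.9 and 118 CPM in the SEO1 heterozygote, 53.3, 116 and 157 CPM in the GIP4 heterozygote, 138, 95.5 and 348 CPM in the FUN26 heterozygote and 159, 238.5 and 168 CPM in the FUN14 heterozygote. Of the 12 strain libraries 11 lay above the wild-type mean and 9 above its highest sample. Every FUN14 library lay above wild-type, as for 4.90% of tested ORFs.

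The TRP3 difference was 1.27 ± 0.43 log2 units averaged over the strains, with an unadjusted p of 0.00791 and an adjusted p of 0.610 by edgeR. It was 1.03 ± 0.55 in the SEO1, 0.81 ± 0.57 in the GIP4, 1.60 ± 0.54 in the FUN26 and 1.65 ± 0.53 in the FUN14 heterozygote (adjusted p by edgeR 0.994, 0.942, 0.808 and 0.159). Without replicate 3 of the FUN26 heterozygote its value was 0.98 (edgeR unadjusted p = 0.0946). Counts were low, 1 to 16 in a library. Summed, they gave a strain to wild-type ratio of 2.50 (95% exact interval for counting error only, 1.60 to 4.07). TRP3 reached the filter's level in 1 of 5 wild-type and 8 of 12 strain libraries, so it passed mainly through strain libraries.

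TRP2, the partner of TRP3 in anthranilate synthase, had a mean close to that of wild-type. It read 311, 98.0, 244, 229 and 460 CPM in wild-type and 175 to 403 CPM in the strains, with a mean difference of 0.01 ± 0.29 log2 units (edgeR adjusted p = 0.996). Its sign turned under several alternatives.

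TRP4 (YDR354W, chromosome 4, 1184741 to 1185883 on the W strand), anthranilate phosphoribosyltransferase, was the faintest tested member. Wild-type read 25.1, 49.0, 11.1, 69.7 and 16.4 CPM, and the strains ranged from 21.2 to 152 CPM, with 7 of 12 libraries above the wild-type range. The mean difference was 1.15 ± 0.55 log2 units, with an unadjusted p of 0.0487 and an adjusted p of 0.719 by edgeR. The strain values ran from 0.88 (GIP4) to 1.43 (FUN26). No wild-type library and 3 strain libraries reached the filter's level, so TRP4 passed through high strain libraries alone, and its 1 to 13 counts a library gave a ratio of 2.21 (95% exact interval for counting error only, 1.24 to 4.23).

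TRP5, tryptophan synthase, ends the branch and had the smallest spread relative to its mean in wild-type. Wild-type read 298, 261, 333, 318 and 230 CPM, and 11 of 12 strain libraries lay above its highest sample, at 334 to 483 CPM; replicate 3 of the GIP4 heterozygote, at 226 CPM, lay below its lowest. The difference was 0.36 ± 0.19 log2 units averaged over the strains, with an unadjusted p of 0.0782 and an adjusted p of 0.719 by edgeR.

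**Figure D2:**
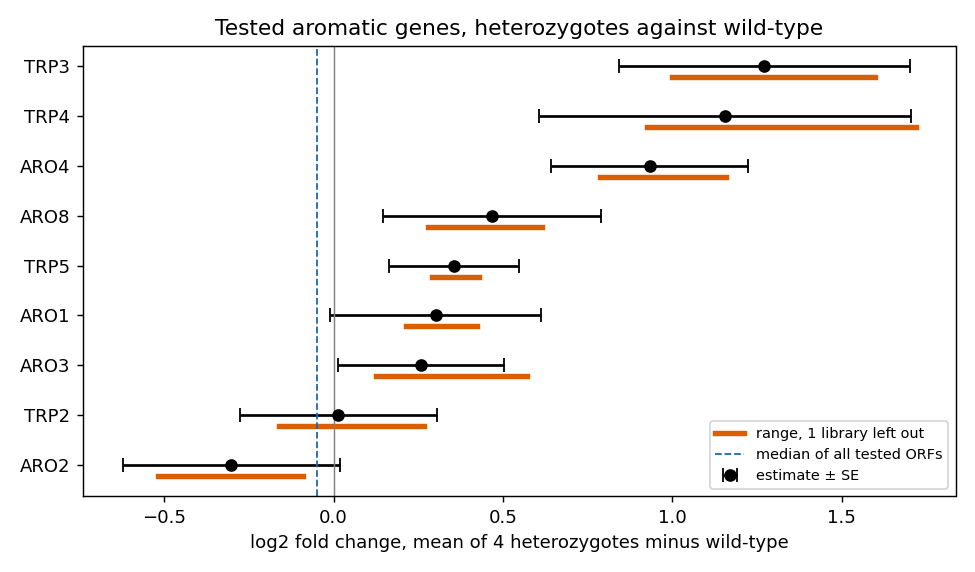
Log2 fold change of the 9 tested members, mean of the 4 heterozygotes minus wild-type, from edgeR: points with bars of 1 SE, with an orange bar for the range when 1 library is left out and a dashed line at the median of all tested ORFs, −0.05. TRP3, TRP4 and ARO4 lie farthest above 0, TRP2 spans it, and ARO2 lies below it.

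At a Benjamini-Hochberg adjusted p under 0.05, edgeR called 0 of the 9 members in the average over the strains, where 0.385% of all 2856 tested ORFs were called, and DESeq2 also called 0. At an unadjusted p under 0.05 edgeR had 3 members higher (ARO4, TRP3 and TRP4), against 3.15% of all tested ORFs, and DESeq2 had 2, ARO4 and TRP3. TRP4 passed the filter through strain libraries alone and TRP3 mainly so, and their places in this count and in those of the strains are therefore no support for the group. By strain edgeR called 0 members in the SEO1 heterozygote (0.140% of tested ORFs), 0 with GIP4 replaced (0.280%), 0 with FUN26 replaced (0.210%) and 0 with FUN14 replaced (0.315%), and DESeq2 called 0 in each.

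At the unadjusted threshold in edgeR, the SEO1 heterozygote had 0 members higher (2.14% of tested ORFs), the GIP4 heterozygote 3 (ARO3, ARO4 and ARO8, against 2.31%), the FUN26 heterozygote 2 (ARO4 and TRP3, against 2.52%) and the FUN14 heterozygote 2 (ARO4 and TRP3, against 4.76%). The FUN14 heterozygote also had 1 lower, ARO2, against 11.9%. These are the same counts in DESeq2. Without replicate 1 of the GIP4 heterozygote, edgeR kept 1 of its 3 members, ARO3. Among the strains 0 members passed the adjusted F test in edgeR (0% of tested ORFs) or DESeq2, and 2 passed unadjusted, against 10% (287) of the tested ORFs. The 5 comparisons with wild-type share its libraries.

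Fold changes above 0 were seen for 8 of 9 members in the average over the strains, against 44.2% of tested ORFs, with a median of 0.36 against −0.05. The counts were 7 of 9 with SEO1 replaced (50.5% of tested ORFs), 9 of 9 with GIP4 replaced (53.0%), 5 of 9 with FUN26 replaced (45.1%) and 7 of 9 with FUN14 replaced (47.9%). The medians in these strains were 0.39, 0.81, 0.10 and 0.35, against 0.01, 0.03, −0.05 and −0.03 for all tested ORFs. These counts describe members that passed the filter, and are not evidence for the group, since TRP3 and TRP4 passed through their high libraries.

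Every library of the strain lay above every wild-type sample for TRP5 in the SEO1 heterozygote (1.82% of tested ORFs did so), TRP5 and ARO4 in the FUN26 heterozygote (2.00%) and TRP5, ARO4 and TRP3 in the FUN14 heterozygote (4.90%). No member did so in the GIP4 heterozygote (1.47%).

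The rest of the pathway was thinly measured. TRP1, the phosphoribosylanthranilate isomerase, read 77.8 to 391 CPM in wild-type and 34.8 to 444 CPM in the strains (edgeR adjusted p = 0.783 for the average), and its window overlaps an ORF on the other strand. TYR1 (prephenate dehydrogenase, 0 to 5 counts a library) and PHA2 (prephenate dehydratase, 1 to 6 counts) were not tested. PHA2 read 37.5 ± 15.4 CPM in wild-type, 75.8 ± 26.1 CPM with GIP4 replaced and 7.60 to 35.6 CPM in the 9 libraries of the other 3 strains, whose means all lay below that of wild-type. Of the 10 genes for supply, transport and use of aromatic compounds, 4 were tested and 0 were called in any comparison. GCN4 read 698 ± 352 CPM in wild-type and 329 to 1370 CPM in the strains (edgeR adjusted p = 0.866 for the average).

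Other amino acid synthesis genes gave a comparison within the same fit. Of 28, 20 were tested, 19 had an average fold change above 0, and their median was 0.51. In edgeR 0 were called in the average. In single strains the sole call was HIS4, a histidine synthesis enzyme, in the GIP4 heterozygote, at 2.25 ± 0.45 log2 units (edgeR adjusted p = 0.0284). That call was lost without replicate 1 or 3 of the strain or without wild-type replicate 1, 3, 4, 5 or 6 (edgeR adjusted p from 0.0566 to 0.390), while the fold change stayed between 1.91 and 2.48.

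The members did not vary as a block across libraries. Over the 36 pairs of tested members the median Pearson correlation of log2 CPM over 17 libraries was −0.02, against −0.01 for all pairs of tested ORFs, and 17 pairs were above 0. The highest were ARO4 with TRP5 and ARO2 with ARO3, at 0.59 each, and the lowest was ARO1 with ARO2, at −0.52. With group means removed ARO2 and TRP2 reached 0.86. The points share libraries and the axis described next.

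**Figure D3:**
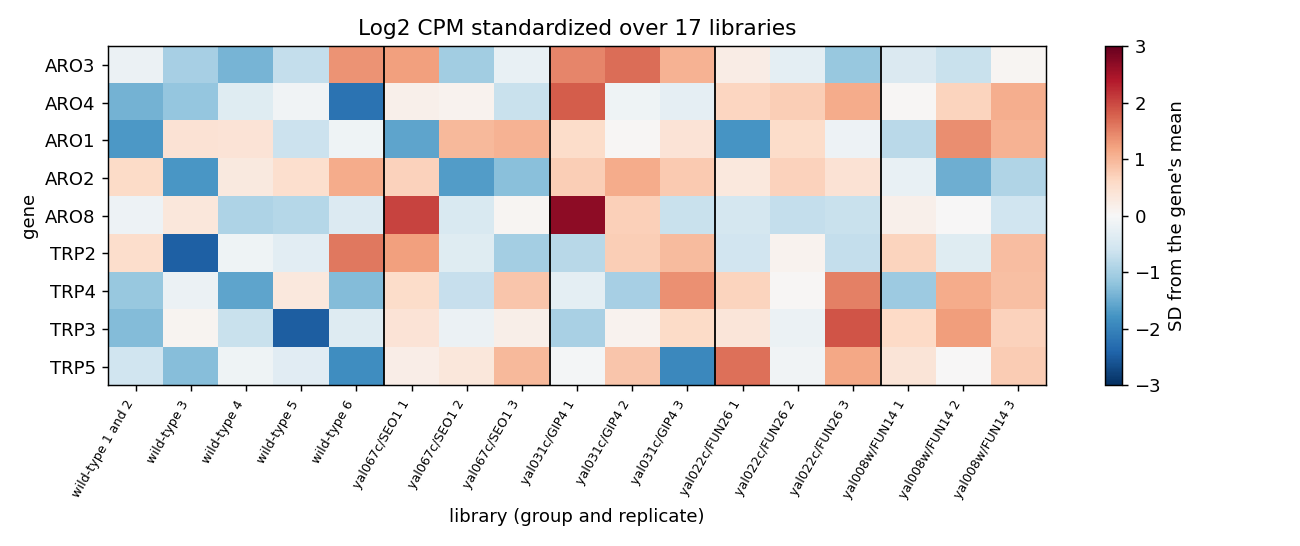
Log2 CPM of the 9 tested members, each centred and divided by its SD over the 17 libraries, with libraries in columns by genotype and colour from low to high. ARO2 is low in wild-type replicate 3, in 2 SEO1 libraries and in FUN14 replicates 2 and 3.

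Much of the spread in ARO2 and ARO3 followed a difference among libraries. The first principal component of the other 2847 tested ORFs held 44.8% of their variance, and 36.5% of the variance of its scores lay between groups. Wild-type replicate 3 had the highest score, 38.7, and the other wild-type samples had −23.6 to −3.39. The 3 FUN14 libraries and 2 of the 3 SEO1 libraries had scores of 13.6 to 28.7, and all 3 GIP4 libraries were below 0.

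ARO2 correlated with this score at r = −0.90 and rho = −0.87 over 17 libraries, with a permutation p of 1e-05, the smallest that 1e+05 permutations can give, and 9e-05 after adjustment over 9 members. It was −0.84 without wild-type replicate 3 and FUN14 replicate 2, the 2 libraries farthest from the median score of −3.68, −0.89 within groups, −0.44 over the 10 libraries below 0 and −0.85 over the 7 above 0. ARO3 gave r = −0.66 and rho = −0.70 (permutation p = 0.00483, adjusted 0.0217), −0.62 without the same 2 libraries, −0.68 within groups and −0.56 and −0.30 on the 2 sides. ARO1 and TRP3, at r = 0.56 and 0.53, did not pass the adjustment (permutation p adjusted 0.0554 for both), and ARO4 was at 0.05.

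The median absolute correlation of all tested ORFs with the score was 0.50, and 5.39% reached the size of ARO2's. The permutations moved libraries across groups and tested against no correlation. Their p-values therefore do not set ARO2 or ARO3 apart from other ORFs. The ARO2 window has 48% GC, above 88.7% of tested ORFs, and across 2602 tested ORFs the correlation with the score was lower where GC was higher (Spearman −0.36, a description across genes). Other members varied: TRP3 had 38% GC and r = 0.53, ARO4 44% and r = 0.05, and ARO3 42.5% and r = −0.66. With the score as a covariate, an alternative chosen after seeing the data, the ARO2 difference in the FUN14 heterozygote was −0.04, against −1.06 without it. The FUN14 libraries scored 13.6 to 28.7 and wild-type, replicate 3 aside, −23.6 to −3.39. Strain and score can therefore not be told apart in this comparison. The part of window GC in these differences was not tested.

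**Figure D4:**
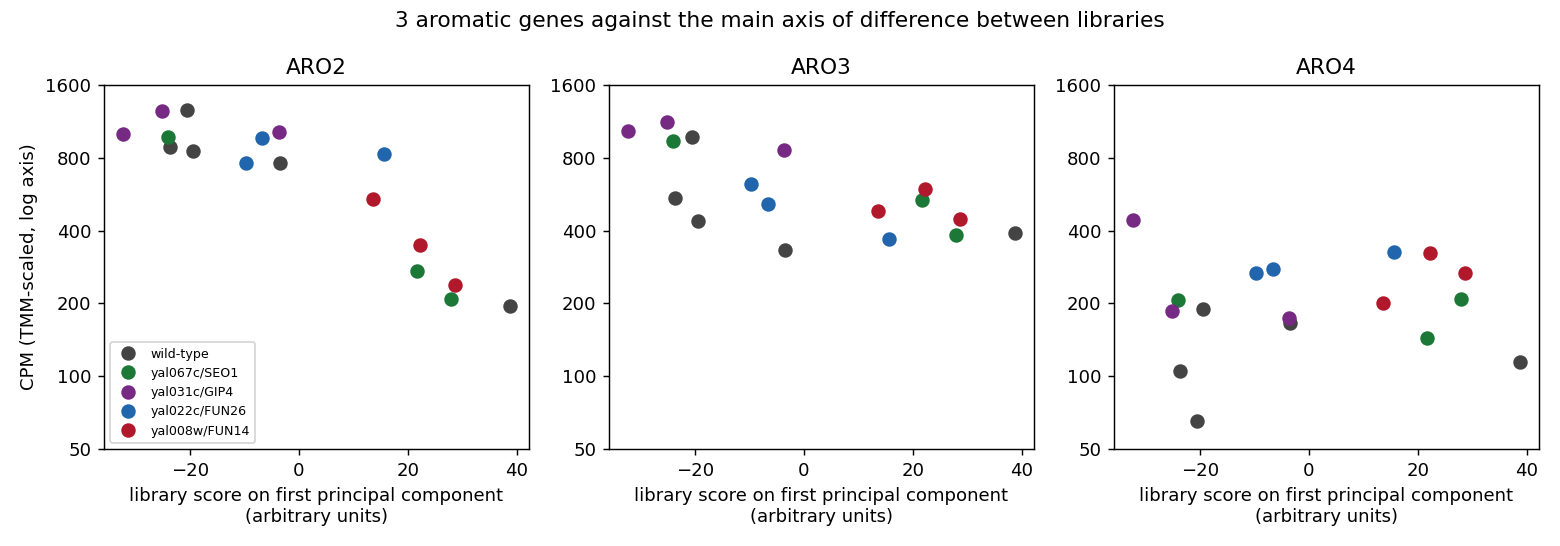
Level of ARO2, ARO3 and ARO4 (CPM on a log axis) against the library score (first principal component of the other tested ORFs, arbitrary units), 1 point per library, coloured by genotype. ARO2 is lower where the score is higher, r = −0.90, ARO3 less closely, r = −0.66, and ARO4 has r = 0.05.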

How the data were processed

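The authors deposited a table of estimated counts for 6606 ORFs in 18 libraries, over the last 200 bases of each ORF per the name of the table. Bowtie 0.12.5 was used, per the submitters' processing notes. The sources used here do not give the genome build, the gene models, whether strand was used or how multiply matching reads were handled. Of 118908 values, 93.0% were whole and 6.98% multiples of 0.5, and none exceeded 201. Per the labels' protocols, RNA was poly-A selected by 2 rounds on beads and fragmented to an average of 200 to 300 bases.

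Counts were rounded and tested with edgeR 4.0.16 (limma 3.58.1, R 4.3.3): TMM scaling, the filterByExpr filter (grouped, minimum count 10) and quasi-likelihood tests from a single fit of all groups. Wild-type was subtracted from every strain and from the average of the 4 strains, and the strains were compared with an F test, with Benjamini-Hochberg adjustment over 2856 tested ORFs and a threshold of 0.05. The chi-square between wild-type replicates used an occupancy model with 202 positions. CPM divides by the TMM-scaled library size, per 1e+06, and log2 CPM used a prior count of 2. DESeq2 1.42.0 was an alternative, among 11 beside leaving out each of 18 libraries. Symbols came from the R64 RefSeq table, which paired 5918 ORFs and left 688 unpaired; promoter windows were read from the same build, and no deposited member coordinates equal it.

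The members named are all 10, the rest of the pathway, genes of supply and use, GCN4 and, from other amino acid synthesis, those called. The members and lists were chosen with earlier results of these data known. Likeness to the members' mean was ranked over the other tested ORFs by a rule that takes 5, of which 1 is not reported here.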

Additional observations from a re-analysis of the deposited data

How the results depend on the processing

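Precision is limited by low counts in TRP3, TRP4 and ARO7. The highest counts of ARO2 and ARO3 in a library, 113 and 116.5, lay under the ceiling of 201. What the ceiling did to their precision was not tested. The number of members called stayed at 0 in every comparison under 11 alternatives (10 for the average and the F test, which a fit of each strain with wild-type alone cannot give), but leaving out 1 library gave a range of 0 to 1 in the SEO1 heterozygote, in the FUN14 heterozygote and in the F test. Without SEO1 replicate 1, ARO2 was called in the SEO1 heterozygote (log2 fold change −1.66, edgeR adjusted p = 0.0445) and in the F test, while calls over all tested ORFs went from 4 to 114 and from 0 to 217. Without wild-type replicate 3, TRP3 was called in the FUN14 heterozygote (1.99, edgeR adjusted p = 0.0427), while calls over all tested ORFs there went from 9 to 175. The cause was not tested.

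The average of ARO4 over the strains ran from 0.78 to 1.21 over all alternatives, with unadjusted edgeR or DESeq2 p of 0.00193 to 0.0440 and no adjusted p below 0.146. TRP3 ran from 0.96 to 1.60, TRP4 from 0.93 to 1.72, ARO1 from 0.17 to 0.68, ARO3 from 0.13 to 0.57 and ARO8 from 0.15 to 0.72. ARO2 turned to 0.20 with wild-type replicates 1 to 3 alone and to 0.045 with the library score as a covariate. TRP2 turned to −0.022 with wild-type replicates 1 and 2 separate, to −0.15 with wild-type replicates 4 to 6 alone, and ran from −0.16 to 0.27 on leaving out a library. In the GIP4 heterozygote TRP4 ran from 0.07 to 1.43 on leaving out a library, the lowest without its own replicate 3.

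The median of the members in the GIP4 heterozygote was 0.45 with each strain fitted with wild-type alone and 0.44 to 0.88 on leaving out a library. In the FUN26 heterozygote it was 0.55 with wild-type replicates 1 to 3, 0.43 with the replicate block, 0.42 with the score and −0.0066 to 0.31 on leaving out a library. In the FUN14 heterozygote it was 0.53 with wild-type replicates 1 to 3 and 0.57 with the score. With the replicate number as a block 0 members were called in any comparison and HIS4 was no longer called in the GIP4 heterozygote (edgeR adjusted p = 0.154), although calls over all tested ORFs came to 52 in the average and 148 in the FUN14 heterozygote. That fit also keeps wild-type replicates 1 and 2 separate, which without the block gave 15 and 23, against 11 and 9 with the pair averaged. Same-numbered libraries of different groups had a median correlation of deviations from group means of 0.23, against −0.11 for different numbers. With group means removed, these medians are not independent of each other. Of 15 libraries, 7 correlated best with their own number. These values do not settle whether the numbers pair the samples, and the main fit did not pair them. DESeq2 called 12 and 48 ORFs in those comparisons and 21 in the F test.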

Other observations

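The 4 tested ORFs, members aside, whose log2 CPM over 17 libraries was most like the mean of the standardized members were SSK1 (Pearson r = 0.79), IME4 (0.79), HIS4 (0.78) and GGC1 (0.77). The libraries are shared by all of these values, and they describe likeness over these libraries alone. The members' mean, which includes TRP3 and TRP4, ran from −0.77 to −0.25 in wild-type and from −0.33 to 0.56 in the strains. Likeness to it therefore takes in the difference between strains and wild-type.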
